A study of Homo sapiens with 4 samples.

Results

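The proteasome gene symbols that begin with PSMA, PSMB, PSMC, PSMD, PSME, PSMF or PSMG and end in a number were followed through the DHX36 PAR-CLIP data. By this rule 48 of the 26490 listed genes were members, and all 48 lie on an annotated protein-coding gene. PAR-CLIP crosslinks a protein to RNA that carries 4-thiouridine, and a T-to-C conversion in the sequenced fragment marks the contact. The cells were HEK293, a human embryonic kidney line, with a stably integrated, tetracycline-inducible transgene for DHX36 with a FLAG and an HA tag. In the FH-DHX36 line the transgene was isoform 2, and in the FH-DHX36-E335A line it was isoform 1 with the helicase mutation E335A, so isoform and mutation cannot be told apart between the lines. In both lines 500 ng/ml tetracycline was given for 15 h and 365 nm light for 5 min, and both still carried endogenous DHX36. There were 2 biological replicates per line, but the deposited table holds 1 value per gene and line. No replicate spread and no test between the lines could therefore be obtained. Intervals below cover counting error only, except the intervals over members in the last section.

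The proteasome degrades proteins that carry ubiquitin chains. Its 20S core is a barrel of alpha rings, which gate the entrance, and beta rings, which hold the proteolytic sites. The 19S regulatory particle sits on the core, with a base whose ATPases unfold the substrate and a lid whose deubiquitinase removes the chain. DHX36 is an RNA helicase known for unwinding G-quadruplexes, folds that form where several runs of guanine lie close together. For that reason guanine runs of 5 members with many crosslinked reads are shown first.

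The pattern searched was 4 or more runs of at least 2 guanines (GG), each separated by 1 to 7 nt, on the sense strand of the canonical transcript. A stretch of 5 or more guanines can count as 2 runs with a guanine between them, as in PSMD13 and PSMD3. Capitals mark the guanine runs, and positions are on GRCh37, the build of the hg19 mapping. All lie within exons.
PSMD8 3'UTR, chr19:38874038-38874057, plus strand: GGGcactGGGtGGGGcaGGG
PSMD13 3'UTR, chr11:252696-252709, plus strand: GGGtGGGGGttGGG
PSMD3 3'UTR, chr17:38153953-38153970, plus strand: GGGGGtGGGGGtgctGGG
PSMD12 5'UTR, chr17:65362639-65362667, minus strand: GGGGGacagcaaGGGacgctcaGGcGGGG
PSMA4 5'UTR, chr15:78832797-78832819, plus strand: GGttattcGGtgagcGGtGGtGG
PSMA4 CDS, chr15:78838059-78838080, plus strand: GGaaattacGGGGGatGGaaGG
In FH-DHX36-E335A these 5 genes were among the 10 members with the most crosslinked reads. The sequence of PSMD8 also matches when each run must hold at least 3 guanines (GGG). Such a match was found in 7 of 48 members, against 23.0% of all protein-coding transcripts, and 5 of the 7 had it in the 3'UTR. With runs of 2, a match was present in the 5'UTR of 22 members (52.4% of all transcripts), in the CDS of 38 (84.3%) and in the 3'UTR of 21 (63.1%). Member transcripts were short, with a median of 1529 nt for those with a FH-DHX36-E335A cluster and 3600 nt for all such genes, and the counts of matches were not scaled to length. The table gives no cluster positions, so the matches were not placed under clusters. For PSMA4 no 5'UTR cluster was listed in either PAR-CLIP, and for PSMD12 none in FH-DHX36-E335A. The other regions shown had a cluster in both PAR-CLIPs.

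Most proteasome mRNAs carried DHX36 clusters. A cluster is a stack of reads that overlap and carry such conversions, and crosslinked reads are the reads within it. With FH-DHX36-E335A, 40 of 48 members had at least 1 cluster (34.5% of all listed genes, 47.7% of protein-coding ones), and with FH-DHX36, 35 of 48 did (22.4% and 31.0%). The members held 253 and 84 clusters, respectively. Their 61028 crosslinked reads made up 0.697% of all reads in FH-DHX36-E335A (95% Wilson interval 0.692 to 0.703%), and their 13613 reads made up 0.630% in FH-DHX36 (0.620 to 0.641%). The whole table held 8752127 and 2160413 reads, so the first PAR-CLIP was 4.05 times as deep and could list more genes at low counts. Among members with a cluster the lowest count was 24 reads in each PAR-CLIP, and at least 100 reads were reached by 37 members in FH-DHX36-E335A (26% of all genes) and 21 in FH-DHX36 (12.4%).

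Both PAR-CLIPs had clusters on 33 members (21.4% of all genes). This was 33 of the 35 members with a FH-DHX36 cluster (95.6% over all genes) and 33 of the 40 with a FH-DHX36-E335A cluster (62.1%). Clusters in FH-DHX36-E335A alone were found on 7 members, PSMA1, PSMB4, PSMB10, PSME1, PSME4, PSMG1 and PSMG2 (13.1%), and clusters in FH-DHX36 alone on PSMB3 and PSMC6 (0.985%). No cluster was listed for PSMA8, PSMB8, PSMB9, PSMB11, PSMD5 and PSME2. PSMA8 is the alpha subunit of spermatogenesis, PSMB8 and PSMB9 are catalytic subunits of the interferon-induced immunoproteasome, and PSMB11 belongs to the thymus. The table recovers RNA abundance only for genes with a cluster, so an mRNA that was not bound and one that was not expressed cannot be told apart here. In the plot of crosslinked reads by member PSMA4 is highest in both PAR-CLIPs, and several lid genes follow.

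**Figure D1:**
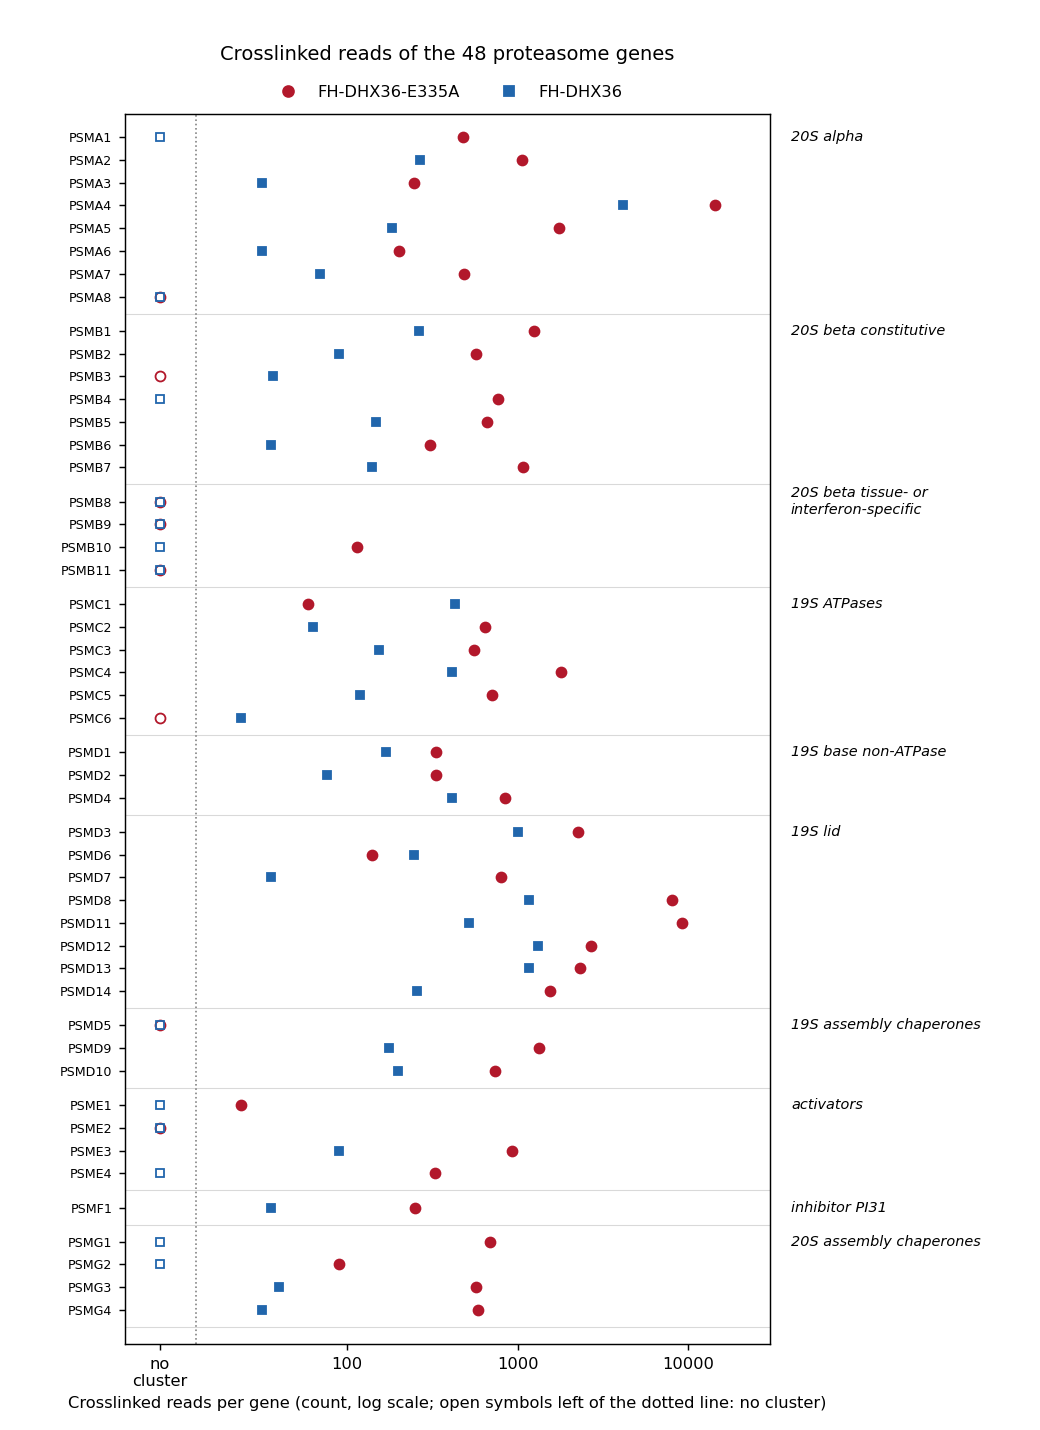
Crosslinked reads (log scale) of each of the 48 members in the FH-DHX36-E335A (red circles) and FH-DHX36 (blue squares) PAR-CLIPs, grouped by role, with 1 value per gene and line and open symbols for no cluster. Counts run from 24 to 14285 reads in FH-DHX36-E335A and from 24 to 4157 in FH-DHX36, with PSMA4 highest in both.

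The alpha ring was dominated by PSMA4, one of the 7 alpha subunits found in every cell. PSMA4 had 14285 reads in 9 clusters in FH-DHX36-E335A, which was 23.4% of all member reads, and 4157 reads in 4 clusters in FH-DHX36, which was 30.5%. The other six alpha members with clusters had between 202 (PSMA6) and 1739 reads (PSMA5) in FH-DHX36-E335A. In FH-DHX36, PSMA2 had 270 reads, PSMA5 had 184, PSMA7 had 70, PSMA3 and PSMA6 had 32 each, and PSMA1 had none. Per kb of canonical transcript, PSMA4 had 3263 reads in FH-DHX36-E335A and the other bound alpha genes had 197 to 741.

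The constitutive beta genes, which include the catalytic subunits PSMB5, PSMB6 and PSMB7, spread less. In FH-DHX36-E335A they ranged from 309 reads (PSMB6) to 1245 reads (PSMB1), with no cluster on PSMB3. In FH-DHX36 they ranged from 36 reads (PSMB6) to 263 reads (PSMB1), with 37 reads on PSMB3 and no cluster on PSMB4. Of the 4 tissue- or interferon-specific beta genes, PSMB10 alone had a cluster, with 115 reads in FH-DHX36-E335A. The subunits of the 20S core are assembled at equal numbers, yet per kb of canonical transcript the 13 constitutive genes with a FH-DHX36-E335A cluster spanned a 25.2-fold range, from 129 reads per kb in PSMB2 to 3263 in PSMA4. RNA abundance of the 14 constitutive core genes spanned 22.6-fold, from 28.3 to 638 FPKM.

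The 6 ATPases of the base, PSMC1 to PSMC6, thread the substrate into the core. PSMC4 had the most reads of them in FH-DHX36-E335A, 1805 in 13 clusters, and 414 in FH-DHX36. PSMC5 had 705 and 119 reads, PSMC2 had 645 and 63, and PSMC3 had 556 and 154. PSMC1 ran the other way, with 59 reads in FH-DHX36-E335A and 431 in FH-DHX36. PSMC6 had no cluster in FH-DHX36-E335A and 24 intronic reads in FH-DHX36. The other base subunits were PSMD1 and PSMD2, which form its scaffold, and PSMD4, a ubiquitin receptor. PSMD4 had 842 and 414 reads, PSMD1 had 333 and 169, and PSMD2 had 332 and 77.

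Of the role groups the lid carried the largest share, with clusters on 8 of 8 genes in both PAR-CLIPs and 44.2% of member reads in FH-DHX36-E335A and 42.0% in FH-DHX36. PSMD11, a scaffold subunit of the lid, had 9158 reads in 15 clusters in FH-DHX36-E335A and 523 reads in 3 clusters in FH-DHX36. PSMD8, another structural lid subunit, had 8031 and 1164 reads. Per kb of transcript PSMD8 was the highest member in FH-DHX36-E335A, at 5291 reads per kb, followed by PSMA4 at 3263 and PSMD11 at 2379. In FH-DHX36 the order was PSMA4 at 949.5, PSMD8 at 767 and PSMD13 at 734 reads per kb. PSMD12 had 2678 and 1314 reads, PSMD13 had 2331 and 1167, and PSMD3 had 2275 and 1003. PSMD14, the deubiquitinase, had 1552 and 256 reads and PSMD7, its inactive partner, had 801 and 36. PSMD6 was the lowest lid gene in FH-DHX36-E335A, with 141 reads, and had 249 in FH-DHX36.

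The genes for assembly and alternative caps lay below the median of the lid, 2303 reads in FH-DHX36-E335A. PSMD9 and PSMD10, chaperones of base assembly, had 1330 and 737 reads in FH-DHX36-E335A and 177 and 200 in FH-DHX36. Among the activators, PSME3, the nuclear REG gamma, had 932 and 90 reads. PSME4, known as PA200, had a single CDS cluster of 327 reads and PSME1 a single cluster of 24 reads, both in FH-DHX36-E335A alone. PSMF1, which encodes the inhibitor PI31, had 251 and 36 reads. The chaperones of core assembly, PSMG1 to PSMG4, had 693, 90, 570 and 584 reads in FH-DHX36-E335A, and in FH-DHX36 PSMG3 had 40 and PSMG4 had 32, with no cluster on the other two.

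In FH-DHX36-E335A most reads on proteasome mRNAs lay outside the annotations that the table reports, and in FH-DHX36 they did not. The table splits reads and clusters into 5'UTR, CDS, 3'UTR and intron, and for many genes the total exceeds the sum of these 4. In FH-DHX36-E335A, 42014 of 61028 member reads were outside them, which is 68.8% (68.5 to 69.2%), against 21.4% over all genes. In FH-DHX36, 3358 of 13613 were outside, 24.7% (24.0 to 25.4%), against 16.7%. Over 50% of reads were outside in 22 of 40 members in FH-DHX36-E335A (12.6% of all genes with a cluster) and in 7 of 35 in FH-DHX36 (10.4%). At least 1 cluster outside was present in 33 of 40 members (45.4%) and 14 of 35 (20.9%). For PSMB4, PSMB7, PSMB10 and PSME1 every FH-DHX36-E335A read was outside (3.14% of all genes), and in FH-DHX36 this held for PSMB6, 1 of 35 members (5.36%). The table does not name the annotation of these reads.

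On average the outside clusters of members held more reads than the exonic ones in both PAR-CLIPs. In FH-DHX36-E335A the 83 outside clusters of members were 32.8% of their clusters (11.8% over all genes) and held 506 reads each, and the exonic clusters held 116 each. Over all genes these values were 263 and 132, and for members in FH-DHX36 they were 224 and 157. In FH-DHX36-E335A, PSMA4, PSMD11 and PSMD8 supplied 67.1% of the outside reads in 11 clusters, and the other 72 outside clusters held 192 reads each. PSMA4 had 13922 outside reads in 5 clusters (97.5% of its reads, 97.2 to 97.7%), PSMD11 had 8447 in 2 clusters (92.2%, 91.7 to 92.8%), and PSMD8 had 5838 in 4 clusters (72.7%, 71.7 to 73.7%). Without these 3 genes the share was 46.7%, and the median over the 40 members was 52.8%, where the median over all genes was 0%. In FH-DHX36 the 3 members with the most outside reads were PSMD12, PSMD8 and PSMA4. Without them the other 12 outside clusters held 129 reads each. The exonic value of 157 still counts these 3 genes, among them PSMA4 with 3639 exonic reads, so it is not a like comparison.

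RNA abundance moved with this share over all genes. Here abundance is in FPKM, fragments scaled to transcript length and library size, as recovered from the table. Below 10 FPKM 7.65% of genes had over 50% of their FH-DHX36-E335A reads outside, and neither of the 2 members of that class did. Of genes with 10 to 50 FPKM, 15.3% did, as did 28.2% at 50 to 200 FPKM and 42.9% at 200 or more. Members stood at 9 of 16, 9 of 15 and 4 of 7 in these classes. Ribosomal protein mRNAs, another set for one large complex, had 49.4% of reads outside in FH-DHX36-E335A and 23.6% in FH-DHX36, and the mRNAs of ubiquitin-specific proteases had 13.3% and 7.31%. Over 50% of reads were outside in 9 of 15 members that have an annotated pseudogene and a cluster and in 13 of 25 without one. Across the 40 members the share had a Spearman correlation of -0.03 with the number of noncoding transcripts annotated for the gene.

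**Figure D2:**
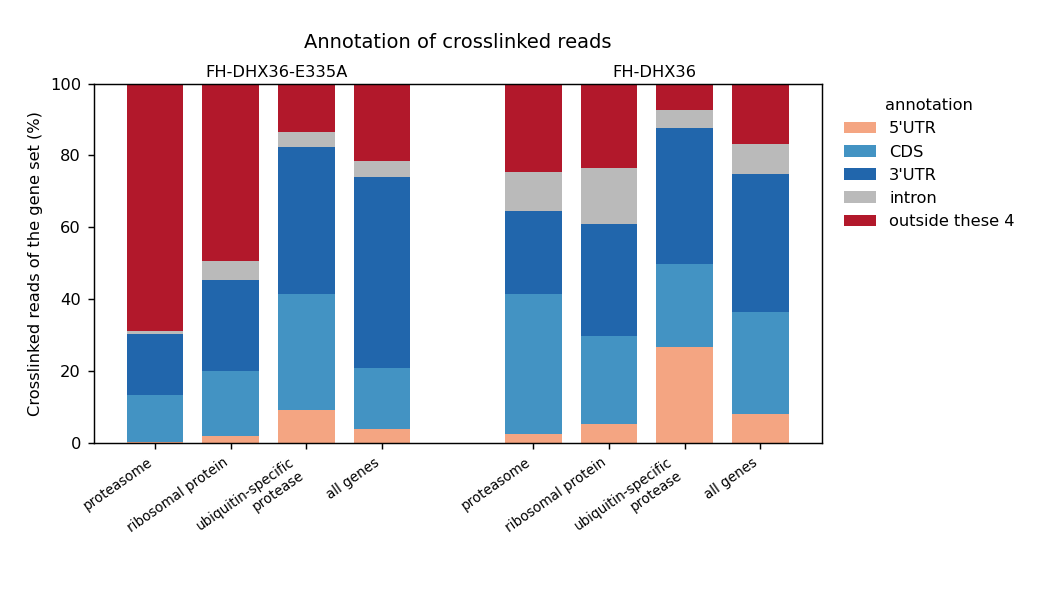
Share of crosslinked reads (%) by annotation for the proteasome genes, ribosomal protein genes, ubiquitin-specific protease genes and all genes, in each PAR-CLIP, with 1 pooled value per bar. The part outside the 4 annotations is 68.8% for the proteasome genes in FH-DHX36-E335A and 24.7% in FH-DHX36.

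The outside share of a gene in one PAR-CLIP did not follow its share in the other. Of the 33 members with clusters in both, 22 had the higher share in FH-DHX36-E335A (43.4% of all genes), and 16 of the 19 with no outside read in FH-DHX36 had some in FH-DHX36-E335A. Across the 33 genes the Spearman correlation of the shares was -0.06, and over the 5669 genes with clusters in both it was 0.45. The points are single genes that share 2 pooled libraries of unequal depth. The reads of PSMA4 lay in different annotations. In FH-DHX36 it had 3567 reads in 2 CDS clusters, 72 in the 3'UTR and 518 outside, and in FH-DHX36-E335A it had 363 in the CDS and 13922 outside. PSMD3 had 820 of 1003 reads in the 3'UTR in FH-DHX36 and 2022 of 2275 outside in FH-DHX36-E335A.

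**Figure D3:**
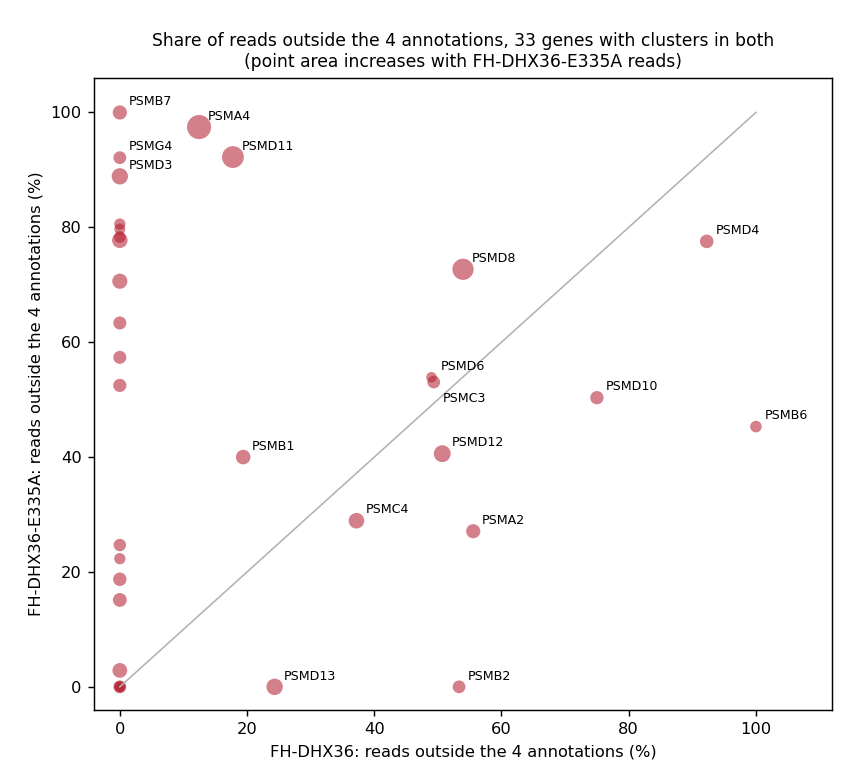
Share of reads outside the 4 annotations (%) in FH-DHX36-E335A (vertical) against FH-DHX36 (horizontal) for the 33 members with clusters in both. Each point is 1 gene, its area increases with its FH-DHX36-E335A reads, and the line marks equal shares. The column of points at 0 on the horizontal axis holds the 19 genes with no outside read in FH-DHX36.

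Within exons, the clusters of proteasome mRNAs leaned to the CDS. Of 159 exonic member clusters in FH-DHX36-E335A, 60.4% lay in the CDS (52.6 to 67.6%), 37.7% in the 3'UTR (30.6 to 45.5%) and 1.89% in the 5'UTR (0.644 to 5.40%), where all genes had 35.7%, 59.2% and 5.05%. Of 56 in FH-DHX36, 55.4% lay in the CDS (42.4 to 67.6%), 35.7% in the 3'UTR (24.5 to 48.8%) and 8.93% in the 5'UTR (3.87 to 19.3%), where all genes had 38.3%, 51.5% and 10.2%. Counted by genes, 32 of 40 members had a CDS cluster in FH-DHX36-E335A (65.2% of all genes with a cluster) and 24 a 3'UTR cluster (78.4%), and in FH-DHX36 19 of 35 had a CDS cluster (46.9%) and 15 a 3'UTR cluster (52.5%). Member 3'UTRs are short, with a median of 351.5 nt against 1551.5 nt. Against the summed lengths of the regions of the bound members, the clusters in FH-DHX36-E335A were 1.25 times the expected share in the CDS, 0.800 times in the 3'UTR and 0.421 times in the 5'UTR. In FH-DHX36 these values were 1.08, 0.820 and 1.69.

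Counted in reads, the CDS share was 43.2% of exonic member reads in FH-DHX36-E335A (22.9% over all genes) and 60.8% in FH-DHX36 (38.0%). The second value rests on PSMA4 and was 34.5% without it, below that over all genes. Single 3'UTR clusters were deep in the lid. PSMD13 had 2265 of its 2331 reads in 1 3'UTR cluster in FH-DHX36-E335A and 883 of 1167 in the 3'UTR in FH-DHX36. PSMD8 had 1690 reads in 1 3'UTR cluster in FH-DHX36-E335A. Outside the lid, PSMD9 had 1292 of 1330 reads in the 3'UTR. CDS reads led in PSMC4, with 1217 of 1805, in PSMB1, with 747 of 1245, and in PSMD7, with 547 of 801.

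In FH-DHX36-E335A a smaller share of bound members than of all bound genes had a 5'UTR cluster, 7.5% against 20.4%. The shares were closer in FH-DHX36, 14.3% against 18.6%. Members also had short 5'UTRs, with a median of 71.5 nt against 145 nt for all bound genes in FH-DHX36-E335A and 74 nt against 144 nt in FH-DHX36. A 5'UTR cluster was found on 3 of 40 members in FH-DHX36-E335A (20.4%) and on 5 of 35 in FH-DHX36 (18.6%), and an intronic cluster on 8 (23.9%) and 11 (24.3%). In FH-DHX36-E335A the 5'UTR of PSMC3 had 31 reads, that of PSMC1 had 26 and that of PSMG3 had 25, a total of 82 reads. In FH-DHX36 other genes had them, PSMA5 with 156 reads, PSMD12 with 51, PSMD7 with 36 and PSMA6 and PSMG4 with 32 each. Intronic reads were 0.880% of member reads in FH-DHX36-E335A and 10.9% in FH-DHX36 (4.48% and 8.51% over all genes). Of member clusters 4.35% (2.44 to 7.62%) and 15.5% (9.27 to 24.7%) were intronic. Both intervals include the shares over all genes, 6.52% and 11.5%. In FH-DHX36 the intronic reads were mainly on PSMD12, with 597 reads, PSMC1, with 431, PSMD8, with 135, and PSMB5, with 116. Those of PSMD12 and PSMC1 lay in 1 cluster each.

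NXPM sets the reads against the amount of mRNA. It is the crosslinked reads scaled to the PAR-CLIP total and divided by RNA abundance. The median NXPM of bound members was 0.931 in FH-DHX36-E335A and 1.08 in FH-DHX36, where all bound genes had 5.66 and 7.84. NXPM was under 1 in 21 of 40 members (18.4% of all bound genes) and 17 of 35 (14.4%), and above 10 in 4 (37.3%) and 4 (44.4%). None was above 100 in either PAR-CLIP (5.18% and 6.78%). In all crosslinked reads the members were not low, with a median of 678 against 326 in FH-DHX36-E335A and 154 against 121 in FH-DHX36. These counts include reads outside the 4 annotations, 68.8% of member reads and 21.4% of all reads in FH-DHX36-E335A. In FH-DHX36 such reads were 24.7% and 16.7%.

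The members are abundant mRNAs, and their NXPM was also read beside genes of like abundance. Their median abundance was 64.5 FPKM, against 5.89 FPKM for all genes with a FH-DHX36-E335A cluster, and 22 of 40 reached 50 FPKM (11.5%). Of genes with 10 to 50 FPKM the median NXPM in FH-DHX36-E335A was 2.85 for 16 members and 2.79 for all genes. At 50 to 200 FPKM it was 0.664 for 15 members and 0.780 for all, and at 200 or more it was 0.151 for 7 members and 0.112 for all. In FH-DHX36 the same classes gave 2.56 against 3.59, 0.907 against 0.865 and 0.0717 against 0.121. In reads, the FH-DHX36 medians were 180.5 for members and 159 for all genes in the lowest of these classes, 154 and 168 in the next, and 70 and 223.5 at 200 FPKM or more, where 7 members were bound. In FH-DHX36-E335A they were 866.5 and 473, 584 and 646, and 663 and 744.

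**Figure D4:**
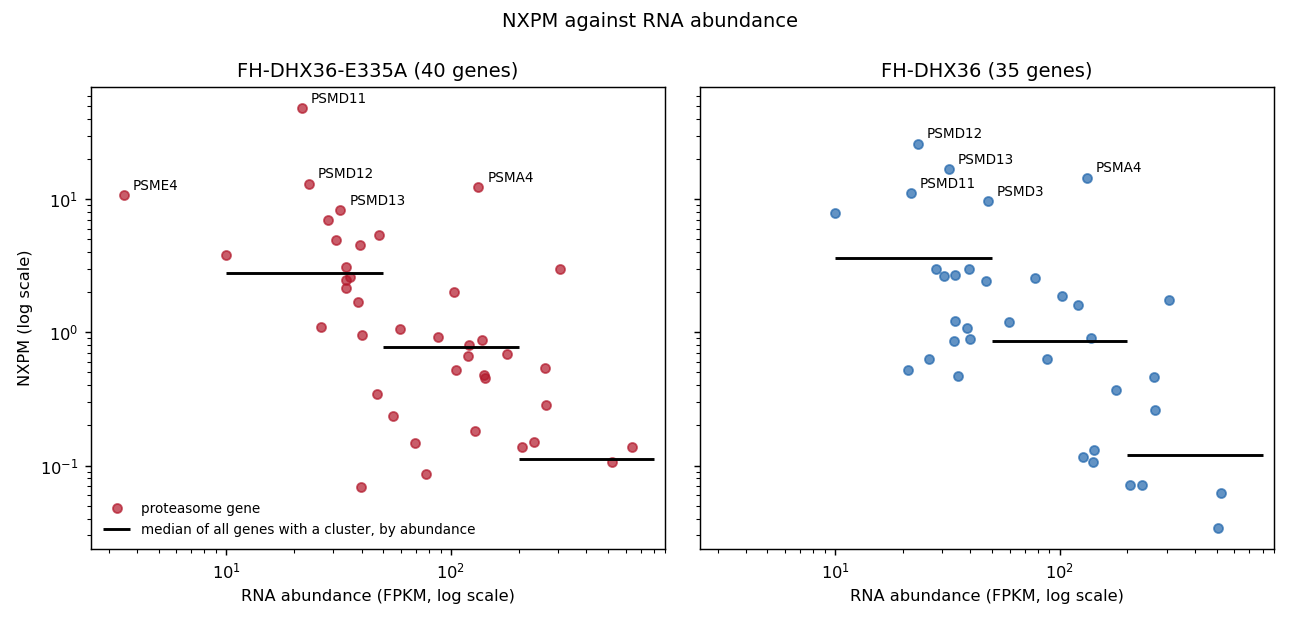
NXPM (log scale) against RNA abundance in FPKM (log scale) for the members with a cluster, 40 in FH-DHX36-E335A and 35 in FH-DHX36. Points are single genes, black lines are medians of all genes with a cluster at 10 to 50, 50 to 200 and at least 200 FPKM, and the 5 genes with the highest NXPM are named.

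Of the 5 members with the highest NXPM, 3 were lid genes in FH-DHX36-E335A and 4 in FH-DHX36. In FH-DHX36-E335A these were PSMD11 at 48.1, PSMD12 at 13.1, PSMA4 at 12.3, PSME4 at 10.7 and PSMD13 at 8.27. In FH-DHX36 they were PSMD12 at 26.1, PSMD13 at 16.8, PSMA4 at 14.5, PSMD11 at 11.1 and PSMD3 at 9.68. PSMD11 ranked 1064 of all genes in FH-DHX36-E335A, and PSMD12 ranked 1397 in FH-DHX36. The median over the lid was 4.96 and 6.34, over the alpha genes 0.519 and 0.512, and over the constitutive beta genes 0.414 and 0.314. Median abundance ran opposite, at 37.5 FPKM for the lid, 132 for the alpha genes and 263 for the constitutive beta genes. PSME4, with 3.50 FPKM the least abundant of those recovered, reached its NXPM with 327 reads, and PSMA4 at 132 FPKM with 14285. These NXPM values count all crosslinked reads. In FH-DHX36-E335A 92.2% of PSMD11 reads and 97.5% of PSMA4 reads lay outside the 4 annotations. The share was 40.6% for PSMD12 and 0% for PSME4 and PSMD13.

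Across the members, NXPM in the 2 PAR-CLIPs had a Spearman correlation of 0.81 and reads one of 0.69 (33 genes). NXPM divides both PAR-CLIPs by the same abundance. Reads had a correlation of -0.06 with abundance in FH-DHX36-E335A (40 genes), and over all genes of 0.32.

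The balance between the PAR-CLIPs depended on which reads and genes were counted. Depth-scaled reads, the share of a gene in all crosslinked reads of its PAR-CLIP, were higher in FH-DHX36-E335A for 22 of 33 members (53.4% of genes with clusters in both), with a median ratio of 1.50 against 1.09 for all genes. The ratio of NXPM is the same number. At least 2-fold more depth-scaled reads were found in FH-DHX36-E335A for 8 members (28.6%) and in FH-DHX36 for 4 (24.8%). The counting intervals of 19 members lay above 1 and those of 8 below 1. Among the 20 members with at least 100 reads in both, all reads gave a median of 1.02 with 10 above 1, and the 3117 such genes overall gave 0.881. Among 28 members with exonic reads in both, scaled to all exonic reads, the median was 0.856 and 13 were higher in FH-DHX36-E335A (51.8% of all such genes), where the median over all genes was 1.05. By this scaling 6 members were at least 2-fold higher in FH-DHX36-E335A (29.2%) and 11 in FH-DHX36 (26.7%). The exonic ratio also leaves out intronic reads and 5 of the 33 genes, so the part of the outside reads alone was not tested. The direction was not stable for the group.

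The members past 3-fold were few. PSMD7 had a ratio of 5.49 (3.93 to 7.90), PSMG4 of 4.50 (3.16 to 6.65), PSMD11 of 4.32 (3.96 to 4.73) and PSMG3 of 3.52 (2.55 to 4.98), as 4 of 33 members (17% of all genes). PSMC1 was higher in FH-DHX36 by 29.6-fold (22.5 to 39.5) and PSMD6 by 7.15-fold (5.80 to 8.86), as 2 of 33 (15.3%). The counts behind PSMD7, PSMG4 and PSMG3 in FH-DHX36 were 36, 32 and 40 reads in 1 cluster each. In exonic reads PSMD7 and PSMG3 stayed above 3, at 4.30 and 3.55, and PSMD11 and PSMG4 were below 1, at 0.412 and 0.358. PSMC1 had no exonic read in FH-DHX36, where its 431 reads were 1 intronic cluster. The largest exonic differences were on PSMA4, 40.2-fold more in FH-DHX36, PSMD3, 15.9-fold more in FH-DHX36, PSMD6, 7.84-fold more in FH-DHX36, and PSMD12, 7.42-fold more in FH-DHX36-E335A, although the ratio of all PSMA4 reads was 0.848 (0.819 to 0.878). For PSMD12 the ratio of all reads was 0.503, and its exonic reads in FH-DHX36 were 51 in 1 cluster.

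**Figure D5:**
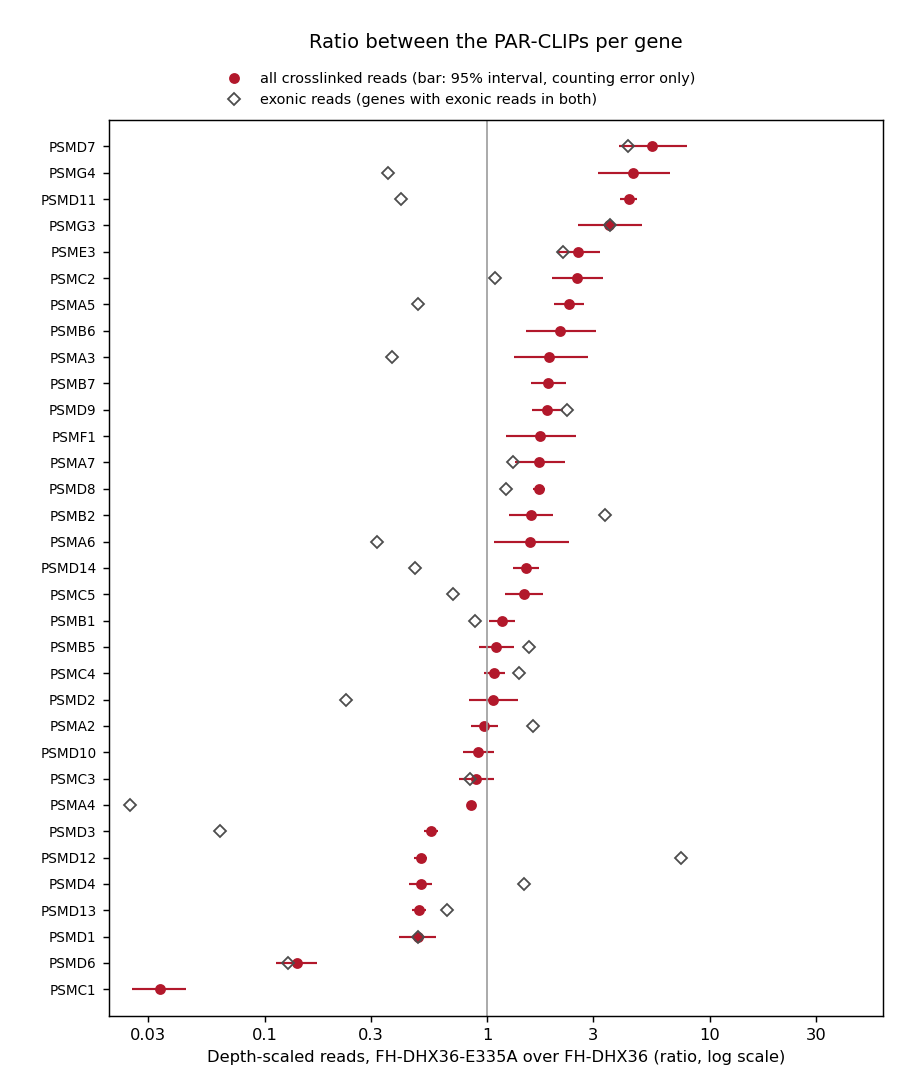
Ratio of depth-scaled reads (reads of a gene over all reads of the PAR-CLIP), FH-DHX36-E335A over FH-DHX36 (log scale), for the 33 members with clusters in both. Red points are all crosslinked reads with 95% intervals from counting error only, and open diamonds are exonic reads for the 28 genes that have them in both. By all reads 9 members lie above 1 that lie below 1 by exonic reads, and 3 go the other way (PSMA2, PSMD12 and PSMD4).

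Partners of the proteasome that the symbol rule leaves out were read in the same way. Of 21 listed genes for receptors, shuttle factors, assembly factors and regulators, all 21 had a FH-DHX36-E335A cluster (34.5% of all genes) and 19 a FH-DHX36 cluster (22.4%), with POMP and NGLY1 lacking the second. Their median NXPM was 10.3 in FH-DHX36-E335A and 4.19 in FH-DHX36, where all bound genes had 5.66 and 7.84. Their abundance ran from 4.64 FPKM (DDI2) to 198 FPKM (SHFM1), and their NXPM was not compared with that of members at like abundance. RAD23B, a shuttle factor that brings ubiquitinated proteins to the proteasome, had 25379 FH-DHX36-E335A reads, of which 22738 were in the 3'UTR. DDI2, the protease that activates the proteasome transcription factor NFE2L1, had 9121 reads and AKIRIN2, a factor for nuclear import of the proteasome, had 8323. SHFM1, the small lid subunit also called SEM1, had 4323 reads of which 94.0% were outside the 4 annotations. SHFM1 and KIAA0368 were the only 2 of the 21 with over 50% outside (12.6% of all genes).

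Some values may hold reads of other genes. Another protein-coding gene overlaps 6 members on the same strand, among them PSMA2, PSMD9 and, with PMPCB, PSMC2. GENCODE annotates 44 pseudogenes of 17 members, none of which is listed in the table, and how reads shared with them were placed is not given in the sources used here. Of 5 listed antisense or divergent transcripts of members none had a cluster. As a check of the cell line, NEFL and VIM had clusters among 5 genes known from HEK293, while PAX2, LHX1 and NEFM had none, and the blood and liver genes PTPRC, CD3E and ALB had none. A gene without a cluster may still be expressed.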

How the data were processed

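PAR-CLIP was carried out on 4 samples, namely 2 biological replicates of each HEK293 line. The authors mapped reads to hg19, called clusters with PARalyzer in PARpipe at default settings and categorized them with GENCODE v19. The submitters' processing notes name bcl2fastq 2.17.1, while versions of other programs are not given in the sources used here. Deposited were counts of clusters and of crosslinked reads, without normalization, and NXPM, a score that the authors obtained from crosslinked reads scaled to the total and divided by RNA abundance from Cufflinks. The table has 1 value per gene and line, named here the authors' value, with 8752127 and 2160413 reads in total. No separate replicate was used, and no column belonged to another sample.

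Abundance was recovered as scaled reads over NXPM, minus 0.001. Both PAR-CLIPs gave the same abundance within 1% for 100% of 5365 genes with over 1 FPKM, and the calculation was tested on simulated data. Reads outside the 4 annotations are the total minus 5'UTR, CDS, 3'UTR and intron. Lengths, overlaps and sequences came from canonical transcripts of GENCODE 44 on GRCh37, a later annotation than the authors', with the stop codon counted in the CDS. One sequence is not reported here. Shares have 95% Wilson intervals and ratios exact conditional binomial intervals. PCR copies are not independent molecules, so both cover counting error only. Correlations are Spearman's, given as descriptions. The analysis used Python 3.11.15, pandas 2.3.3, scipy 1.17.1 and pysam 0.24.0.

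Named were the 10 members with the most FH-DHX36-E335A reads, the 5 with the highest NXPM in each PAR-CLIP, those with clusters in 1 PAR-CLIP only, in a 5'UTR or in an intron, those past 3-fold and, once each, those without a cluster. Values per region are given for only some of them. Any other member with a cluster could be named within its role group. The members and lists were chosen with earlier results of these data known. Alternatives covered the cluster and read minimum, the denominator, exonic reads, the unit, the leading member, abundance and length scaling, a pseudocount of 1, the fold and the guanine pattern. The classes by abundance, the pseudogene and noncoding transcript splits, the values without named genes and the alternatives for the outside share were added after the data were seen.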

Additional observations from a re-analysis of the deposited data

How the results depend on the processing

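With 1 value per gene and line, no alternative could leave out a replicate. No paired analysis was possible because each line has a single column per measure, with no replicate number. Of 53 alternative values, 29 stayed within the 95% interval of the value given, by counting error for shares and over the members for medians, or, for counts, within 1.5 times of it, and the cause of the other 24 was not tested beyond the change itself. Among protein-coding genes the background with a cluster was 47.7% (FH-DHX36-E335A) and 31.0% (FH-DHX36). At least 100 reads were held by 21 members in FH-DHX36. The 3'UTR share of exonic binding in FH-DHX36-E335A was 56.3% by reads and 25% as a median over members, which was 16.7% in FH-DHX36. Of exonic reads, members held 0.285% and 0.543%, without PSMA4 0.279% and 0.318%, and of all reads without PSMA4 0.535% and 0.439%. The order of the PAR-CLIPs in this share thus reversed with exonic reads. The outside share was 60.1% and 30.03% without PSMA4, 32.8% and 17.9% by clusters, and 52.8% and 0% as a median over members. The median ratio was 0.856 with exonic reads and 1.02 with at least 100 reads in both, in place of 1.50. The interval over members was 0.972 to 1.85 and includes 1.02. Its genes share 1 pooled column per line and are not replicates, so it cannot show that a median was unchanged. Past 3-fold were 4 members in FH-DHX36-E335A and 2 in FH-DHX36. Runs of at least 3 guanines left a match in 1 member for the 5'UTR, 1 for the CDS and 5 for the 3'UTR. The median NXPM of members over that of all bound genes, per kb of transcript, was 0.384 in place of 0.164 in FH-DHX36-E335A. In FH-DHX36 it was 0.256 in place of 0.138. Both were counted among the 29 by an interval over members, with the same limit. In the shallower FH-DHX36 PAR-CLIP a gene with few reads may miss a cluster.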
